A study of Homo sapiens with 20 samples.

Results

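The effects of 2 synthetic microRNAs were set against each other in MCF 10A cells, an immortal human line derived from breast epithelium that does not form tumours. The material was every gene with a probe in the unnormalized tables of both experiments, and the quantity compared was the effect of each mimic, that is, the mean log2 intensity of its mimic arrays minus that of its own control arrays. Of 56700 probes in either table, 39426 were in both, and these named 18290 of the 20717 genes that either table measured. Of these, 11623 genes had a probe whose mean over the 4 groups lay above the median of all values of its experiment and were tested, and 6667 did not.

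The miR-4728-3p experiment held 6 arrays after miR-4728-3p mimic and 6 after a control siRNA. The miR-1 experiment held 4 arrays after hsa-miR-1-3p mimic and 4 after a non-targeting control. Cells of all 4 groups went through Lipofectamine transfection, and the labels give 100 nM as the default amount of oligonucleotide, whereas the methods also name a lower one. The methods list a separate control of the same length for the customized miR-4728-3p mimic, so which control molecule those arrays had is not settled. The 2 experiments were run on different versions of the Illumina HT-12 bead array according to the methods, although the labels name version 3.0 for all. The mimic is therefore bound up with the experiment, and a difference between the 2 effects cannot be told apart from one between the experiments. Every group is a single cell line, and the methods call the arrays biological replicates.

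A microRNA guides an Argonaute protein to messenger RNAs whose 3′ untranslated region pairs with its seed, the short stretch near its 5′ end, and the bound messages are silenced and often degraded. miR-1 is known from heart and skeletal muscle, where it is abundant. The gene of miR-4728 lies within an intron of ERBB2, the gene of the receptor HER2, and it is amplified with it in some breast tumours. Short double-stranded RNAs can also be read by the cell as a sign of viral infection, through receptors that switch on type I interferon genes and, downstream of them, a large set of interferon-stimulated genes.

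The mature sequences show how little the 2 mimics have in common, with the seed in capitals and, for miR-4728-3p, the internal seed that the study describes in capitals on its second line.
hsa-miR-4728-3p, seed at positions 2 to 8: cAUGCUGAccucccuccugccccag
hsa-miR-4728-3p, internal seed at positions 6 to 12: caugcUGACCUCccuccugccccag
hsa-miR-1-3p, seed at positions 2 to 8: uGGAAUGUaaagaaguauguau
In RefSeq (GRCh38.p14) the 25 bases of miR-4728-3p lie at chr17:39726537-39726561 on the plus strand. The 22 bases of miR-1-3p lie at chr20:62554351-62554372 on the plus strand, in one of its gene copies. The longest run of bases that both contain is 3. G and C make up 68% of miR-4728-3p and 27.3% of miR-1-3p. The words in a message that pair with the seeds are TCAGCAT and GAGGTCA for miR-4728-3p and ACATTCC for miR-1.

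The 2 mimics changed largely different genes. With a Benjamini-Hochberg adjusted p under 0.05 over the 19646 tested probes, 1358 genes were called with miR-4728-3p (11.7% of the 11623 tested), 621 higher (5.34%) and 737 lower (6.34%). With miR-1, 145 genes were called (1.25%), 83 higher (0.714%) and 62 lower (0.533%). These counts moved with the processing. The miR-1 count was 83 to 96 without miR-1 mimic replicate 1, 3 or 4 or miR-1 control replicate 1, 3 or 4. With median centring the calls numbered 758 for miR-4728-3p and 45 for miR-1, with a fit per experiment 953 for miR-4728-3p and 375 for miR-1, and with array weights 1006 for miR-4728-3p and 518 for miR-1. The genes called with both mimics numbered 39, which is 2.87% of the miR-4728-3p calls and 26.9% of the miR-1 calls. Both shares lay above those over all tested genes, of which 1.25% were called with miR-1 and 11.7% with miR-4728-3p. Between the effects themselves there was next to no relation over the tested genes (Pearson's r = 0.03, Spearman's rho = 0.02, as a description across genes, which are not independent). Effects of miR-4728-3p also spread more widely, with an SD over genes of 0.36 on the log2 scale against 0.15 for miR-1. Of the called genes, 161 moved by more than 1 on that scale with miR-4728-3p, 153 of them upwards, and 6 with miR-1, all upwards. The experiments had unequal numbers of arrays and unequal spread: the median residual SD was 0.19 in the miR-4728-3p arrays and 0.12 in the miR-1 arrays, and the fit used one spread for both.

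A call with one mimic and none with the other does not show that the effects differ, so the difference between the effects was tested for each gene. It is given throughout as the miR-4728-3p effect minus the miR-1 effect. By limma with Benjamini-Hochberg adjustment, 650 genes differed (5.59%), of which 356 had the higher effect with miR-4728-3p (3.06%) and 294 the lower (2.53%). For 30 of the 356, and for 323 of the 11623 tested genes, the mean of the other 3 groups lay at or below the limit for testing. These genes were tested only because the miR-4728-3p mimic arrays were bright, so the limit favoured a higher difference in them. The share of higher calls, 54.8%, was 70.6% when the arrays were centred on their medians in place of quantile normalization, with 247 higher and 103 lower. For 858 genes (7.38%) called with one mimic only, the difference did not pass the test. A strict class of 439 genes (3.78%) changed with miR-4728-3p, differed between the mimics and had an unadjusted p of 0.05 or more with miR-1. These miR-4728-3p-specific genes were 277 higher (2.38%) and 162 lower (1.39%). The same rule turned round gave 47 miR-1-specific genes (0.404%), 27 higher (0.232%) and 20 lower (0.172%), and this number was 30 or 31 without miR-1 mimic replicate 1 or 4 or miR-1 control replicate 4. In the plot of the 2 effects, these classes lie along the axes.

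**Figure D1:**
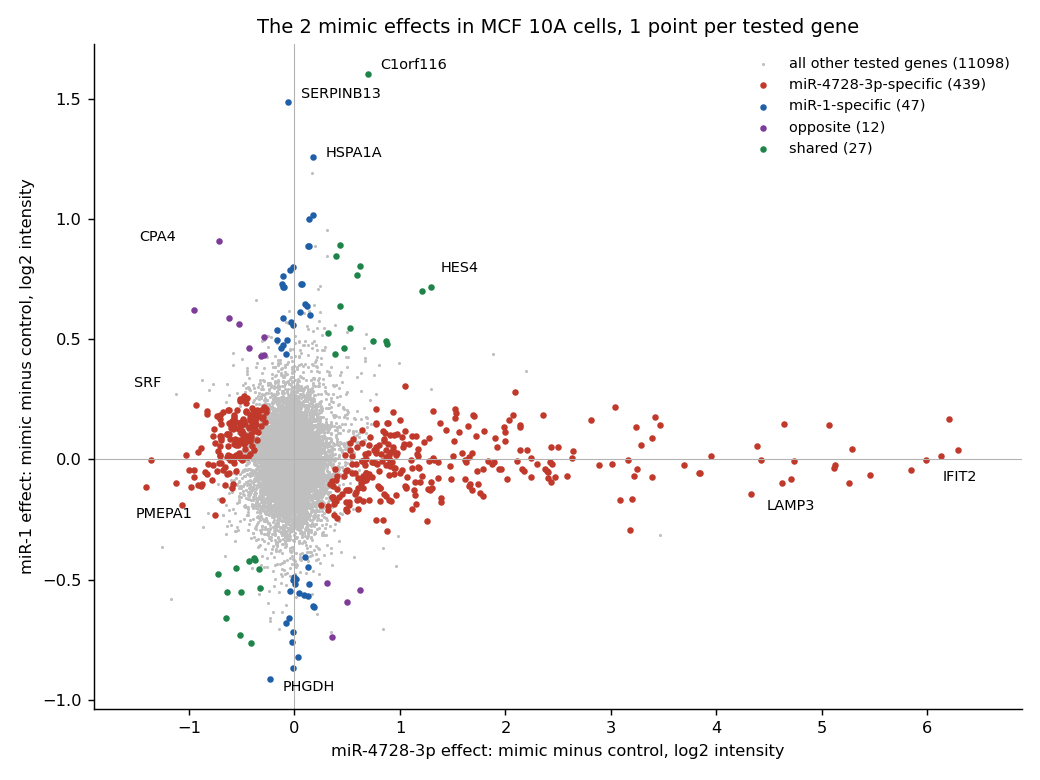
The miR-1 effect (vertical) against the miR-4728-3p effect (horizontal), both as mimic minus control in log2 intensity, with 1 point for each of the 11623 tested genes and axes of unequal scale. The 439 miR-4728-3p-specific genes run along the horizontal axis as far as IFIT2 at 6.29, the 47 miR-1-specific genes stand along the vertical one, and the 27 shared and 12 opposite genes lie between.

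The differences of greatest size belonged to interferon-stimulated genes. The 10 highest were IFIT2 at 6.25, MX1 at 6.11, IFIT1 at 6.03, IFIT3 at 5.98, OAS2 at 5.89, IFI27 at 5.52, IFITM1 at 5.36, ISG15 at 5.24, RSAD2 at 5.15 and CXCL10 at 5.14 on the log2 scale. IFIT2, which binds viral RNA and restrains its translation, lay between 12.91 and 13.80 with a median of 13.18 on the miR-4728-3p mimic arrays, and between 6.50 and 7.57 with a median of 6.97 on their controls. On the miR-1 mimic arrays it read 6.81, 6.79, 6.74 and 6.56, and on their controls 6.81, 6.73, 6.86 and 6.35. Mimic and control arrays thus stood far apart with miR-4728-3p and overlapped with miR-1. The IFIT2 effect was 6.29 ± 0.16 (SE) with miR-4728-3p, a 78.3-fold rise, and 0.04 ± 0.20 with miR-1, and the adjusted p of their difference was 1.8e-17.

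All 37 tested genes on the list of interferon-stimulated genes were higher with miR-4728-3p, and all 37 differences were called higher, against 3.06% of all tested genes. None of the 37 was called with miR-1 by limma, and 0 had an unadjusted p under 0.05 there. The median effect over the list was 3.42 with miR-4728-3p and -0.01 with miR-1, and the median difference was 3.47, against medians over all tested genes of -0.02, -0.01 and -0.02. The miR-1 effects of the list ran from -0.29 to 0.22. For 3 of the 37, CMPK2, MX2 and SAMD9L, the mean of the other 3 groups lay at or below the filter, so that they were tested only because the miR-4728-3p mimic arrays were bright, and the other 34 were all higher as well. ISG15, a ubiquitin-like protein joined to other proteins in infected cells, rose 39-fold with miR-4728-3p and had an effect of 0.05 ± 0.23 with miR-1. IFITM1, a membrane protein that hinders the entry of viruses, rose 38.2-fold with miR-4728-3p, and its effect with miR-1 was -0.10 ± 0.14.

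The proteins that sense double-stranded RNA and pass on the interferon signal went the same way. Of 23 tested genes on that list, 14 rose with miR-4728-3p. With miR-1 limma called 0, and 2 had an unadjusted p under 0.05. The difference was called for 13, all higher. RIGI, a cytosolic receptor of double-stranded RNA, ranged from 9.49 to 10.73 (median 9.98) on the miR-4728-3p mimic arrays and from 6.50 to 6.81 (median 6.61) on their controls. On the miR-1 arrays it read 6.54, 6.49, 6.34 and 6.25 with the mimic and 6.19, 6.38, 6.36 and 6.32 with the control. The groups were separate with miR-4728-3p and overlapped with miR-1. Its difference was 3.30 ± 0.21 (adjusted p = 4.67e-13). IFIH1, the related receptor MDA5, differed by 3.29 ± 0.23, and IRF7, the factor that amplifies interferon transcription, by 3.72 ± 0.21. Of the interferons themselves, IFNB1 averaged 8.53 ± 0.82 on the miR-4728-3p mimic arrays and 6.09 ± 0.21 on their controls (SD, n = 6 each). IFNL1, of the lambda type, averaged 9.19 ± 0.73 on the miR-4728-3p mimic arrays and 6.18 ± 0.14 on their controls (SD, n = 6 each). Their means in the other 3 groups lay below the median of all values of the experiment, 6.36 for miR-4728-3p and 6.17 for miR-1. Both genes thus passed the brightness filter only through the miR-4728-3p mimic arrays, and no size of the difference is given for them. On this list 4 of the 23 tested genes had passed in that way, and of the other 19, 10 were higher with miR-4728-3p and 9 had a higher difference.

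Genes of antigen presentation followed with smaller values. Of 16 tested, 14 were higher with miR-4728-3p and 14 had a higher difference, 1 of them, NLRC5, tested only through the bright miR-4728-3p mimic arrays. With miR-1 limma called 0 of them, and 0 had an unadjusted p under 0.05. TAP1, which carries peptides into the endoplasmic reticulum, differed by 2.53 ± 0.18. PSMB9, a subunit of the immunoproteasome, differed by 2.38 ± 0.24, and HLA-B, a class I heavy chain, by 1.88 ± 0.24.

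Cytokines had differences called in both directions. Of 18 tested, 5 had a higher difference, among them the chemokines CXCL10 at 5.14 and CCL5 at 4.49, and TNFSF10, the death ligand TRAIL, at 3.93. The other two, CXCL11 and IL6, were tested only through the bright miR-4728-3p mimic arrays. The 3 that were lower were IL1A, CXCL8 and IL1B, the last not with median centring (adjusted p = 0.0935). IL1A, an alarm cytokine of epithelium, lay between 9.23 and 9.97 (median 9.55) with the miR-4728-3p mimic and between 9.84 and 10.41 (median 10.08) with its control. With the miR-1 mimic it read 9.71, 9.78, 9.53 and 9.38, and with its control 8.99, 9.23, 9.11 and 9.29. Mimic arrays were thus mostly low in the miR-4728-3p experiment and all above their controls in the miR-1 experiment. Its effect was -0.58 ± 0.12 with miR-4728-3p (adjusted p = 0.000731) and 0.44 ± 0.14 with miR-1 (adjusted p = 0.195), and the difference was -1.03 ± 0.18 (adjusted p = 0.000365). CXCL8, the neutrophil attractant IL-8, fell by 0.74 with miR-4728-3p and differed by -0.92 ± 0.20.

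CD68, a lysosomal protein used to mark macrophages, moved with the immune genes, with a difference of 1.31 ± 0.22. Of 6 tested genes on the list of 18 blood and endothelial markers, only CD68 had a called difference, against 5.59% of all tested genes. MS4A1, another of the 6, was tested only through the bright miR-4728-3p mimic arrays. The summed linear intensity of the 16 listed markers with a probe ran from 3087 to 4623 on the miR-4728-3p mimic arrays and from 2544 to 3236 on their controls. The range was 1885 to 2074 on the miR-1 mimic arrays and 1867 to 2044 on their controls. PTPRC and CD3E, which define leukocytes and T cells, and VWF of endothelium were below the brightness filter. KRT5, KRT14, CDH1, EGFR and CD44, markers of a basal-like breast epithelial line, were all above it. The part that other cells might have in these values was not tested, and in RNA from whole cultures fewer cells of a kind cannot be told apart from less RNA per cell.

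Of the 356 genes with a higher difference, 286 were on none of the 5 immune lists, as were 11515 of the 11623 tested genes. The lists are short, with 37 interferon-stimulated genes, so a gene outside them is not thereby outside the interferon response. The highest of the 286 were LAMP3 at 4.72, HELZ2 at 3.78 and DDX60 at 3.22. LAMP3, a lysosomal membrane protein, spanned 10.53 to 12.07 (median 11.03) on the miR-4728-3p mimic arrays and 6.21 to 6.97 (median 6.56) on their controls, against 6.17, 6.33, 6.01 and 6.27 on the miR-1 mimic arrays and 6.34, 6.29, 6.23 and 6.32 on their controls. CYP2J2, an enzyme that oxidizes arachidonic acid, differed by 2.54 ± 0.31. Of 18 tested genes of cell death, 3 had a higher difference (3.06% over all tested genes) and 1 a lower one (2.53%). The lowest difference of that list was -0.65. Among the higher ones were PMAIP1, which encodes the BH3-only protein NOXA, at 1.63, and CASP1, the caspase of inflammasomes, at 1.50. Without the immune lists, Pearson's r between the effects over the remaining 11515 genes was 0.05.

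The promoters of the risen genes often held the letters that interferon-activated factors bind. The motif searched was GAAA, any 2 bases and GAAA again, on either strand, in RefSeq windows (GRCh38.p14) from 250 bases before to 50 after each start. It was in 63 of 212 windows of the miR-4728-3p-specific higher genes (29.7%) and in 47 of 110 of those whose effect was over 1 (42.7%). Among the lower ones it was in 1 of 143 (0.699%), among miR-1-specific higher genes in 1 of 20 (5%), and among shared higher genes in 0 of 11. All 27305 windows held it in 3.65%, and the windows of tested genes in 2.94%. The miR-4728-3p-specific higher genes include some tested only because the miR-4728-3p mimic arrays were bright, such as CMPK2, MX2 and SAMD9L. These were not taken out, and no share without them is given. A match is a run of letters, not a shown binding site. Of the 10 genes with the highest difference, MX1 and RSAD2 had a window with no match upstream of the start, and IFIT2 and OAS2 had no window in the table. For the other 6, the stretch of 30 bases around the match upstream of the start is given, as read on the strand of the gene, with the match in capitals.
IFIT1, chr10:89392510-89392539: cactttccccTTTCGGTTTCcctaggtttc
IFIT3, chr10:89327865-89327894: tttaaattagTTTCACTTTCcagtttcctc
IFI27, chr14:94110631-94110660: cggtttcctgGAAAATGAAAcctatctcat
IFITM1, chr11:313990-314019: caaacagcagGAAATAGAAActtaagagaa
ISG15, chr1:1013380-1013409: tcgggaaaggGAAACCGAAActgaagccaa
CXCL10, chr4:76023699-76023728, minus strand: tcatgttttgGAAAGTGAAAcctaattcac
In IFIT1 and IFIT3 the match is on the opposite strand, so it reads TTTC, 2 bases and TTTC. The first base of the match lay 107 bases before the start in ISG15 and 221 in CXCL10.

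Genes lower with miR-4728-3p than with miR-1 moved by less. Of the called differences, 20 were below -1, against 163 above 1. The lowest were those of CPA4 at -1.63, MYADM at -1.57, SERPINB13 at -1.55, SRF at -1.39, ACO1 at -1.35 and PMEPA1 at -1.29. They are of 3 kinds: ACO1, PMEPA1 and SRF were called with miR-4728-3p, as falls, SERPINB13 was called with miR-1, as a rise, and CPA4 and MYADM were called with both. PMEPA1, a target of TGF-beta signalling that holds that pathway back, lay between 8.05 and 8.54 (median 8.33) with the miR-4728-3p mimic and between 9.40 and 10.12 (median 9.74) with its control, a 2.65-fold fall. It averaged 6.73 ± 0.10 with the miR-1 mimic and 6.85 ± 0.16 with its control (SD, n = 4 each), and these groups overlapped. Both means were not far above the median of all values of the miR-1 experiment, 6.17. At such levels the offset of 50 from background correction narrows log2 differences, and its part in the difference of PMEPA1 was not tested. ACO1, the cytosolic aconitase that doubles as an iron-regulatory protein, fell 2.56-fold with miR-4728-3p and had an effect of -0.00 ± 0.18 with miR-1 (adjusted p of the difference = 0.000169).

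SRF, the serum response factor that drives actin genes, was separate from its control in both experiments, with opposite signs. It lay between 8.85 and 9.50 (median 9.37) on the miR-4728-3p mimic arrays and between 10.24 and 10.61 (median 10.47) on their controls. On the miR-1 mimic arrays it read 9.43, 8.95, 9.22 and 9.04, and on their controls 8.85, 8.87, 8.94 and 8.90. The miR-4728-3p effect was -1.12 ± 0.10 (adjusted p = 8.46e-10). The miR-1 effect of 0.27 ± 0.12 did not pass (adjusted p = 0.692), and the difference of -1.39 ± 0.16 did (adjusted p = 2.8e-07). Of 28 tested SRF and actin genes, 7 were lower with miR-4728-3p and 0 higher (6.34% lower and 5.34% higher over all tested genes), whereas with miR-1 1 was higher and 0 lower (0.714% higher and 0.533% lower). The difference was called lower for 4, namely SRF, TAGLN at -0.98, CCN2 at -0.94 and CCN1 at -0.61, against 2.53% of all tested genes. The call of CCN1 was lost with median centring and with replicates 1 to 4 of both experiments (adjusted p up to 0.0902). TAGLN is an actin-binding protein, and CCN1 and CCN2 are secreted matrix proteins. In the miR-1 experiment CCN1 averaged 6.94 with the mimic and 6.61 with the control, and CCN2 7.16 and 7.13. The limit given for PMEPA1 at low levels holds for them too.

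**Figure D2:**
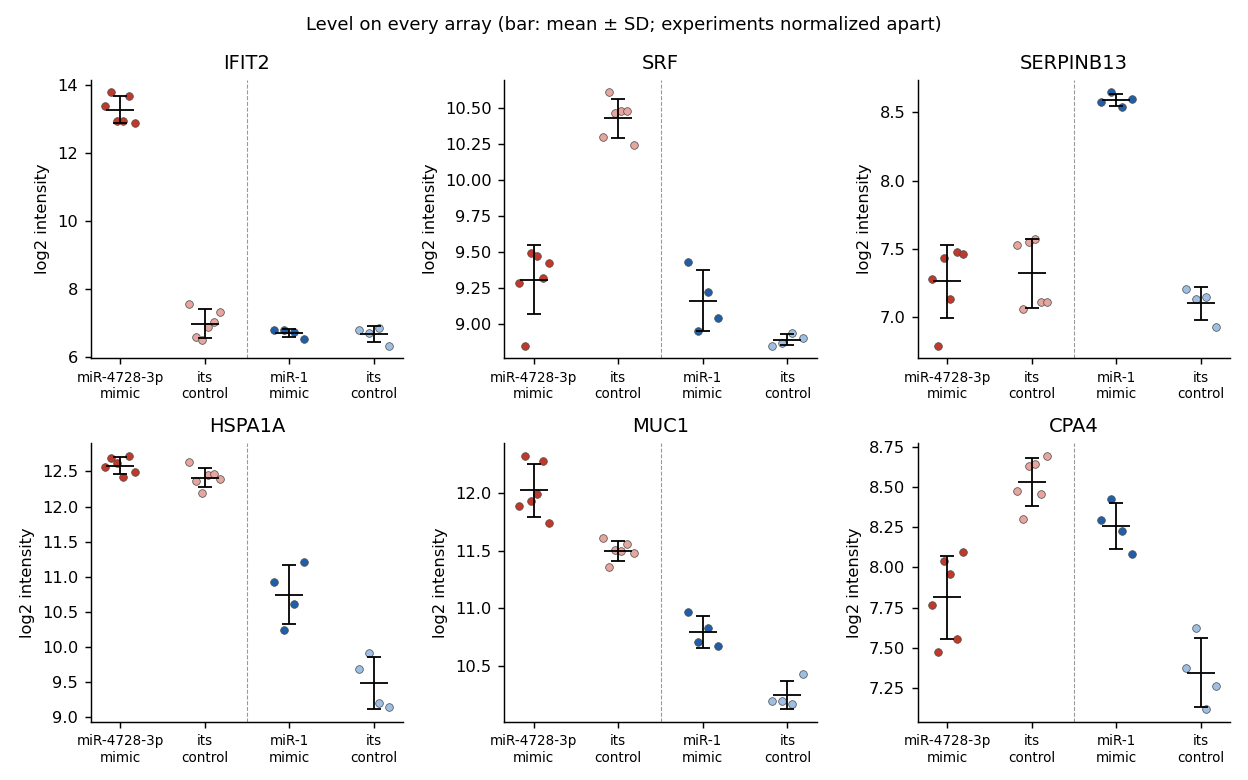
Log2 intensity of 6 genes on every array, with the miR-4728-3p mimic left of its control and the miR-1 mimic left of its control, as points with the mean and SD. The experiments were normalized apart, so levels are read only within each. IFIT2 stood apart in the miR-4728-3p experiment alone, SERPINB13 and HSPA1A in the miR-1 experiment alone, MUC1 rose in both, and CPA4 and SRF moved in opposite directions, with the miR-1 effect on SRF not past the test.

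Genes predicted to pair with the internal seed of miR-4728-3p came from a list that the study obtained by target prediction. The seed submitted to that prediction had been found as a word enriched on these miR-4728-3p arrays, so the direction of the list with miR-4728-3p is not independent evidence. Of 76 tested, 20 were lower and 2 higher with miR-4728-3p, against 6.34% lower and 5.34% higher over all tested genes. With miR-1 0 were lower and 2 higher, against 0.533% lower and 0.714% higher. The difference was called for 9, 8 lower and 1 higher, against 2.53% lower and 3.06% higher. MRPL11, which belongs to the mitochondrial ribosome, lay between 9.47 and 9.88 (median 9.75) with the miR-4728-3p mimic and between 10.68 and 10.95 (median 10.85) with its control. With the miR-1 mimic it read 10.30, 10.31, 10.21 and 10.19, and with its control 10.44, 10.24, 10.25 and 10.48. Its difference was -1.03 ± 0.13 (adjusted p = 2.05e-06). Of the 33 tested mitochondrial ribosomal proteins, it was the 1 with a called difference, and 3 had an unadjusted p under 0.05. SDC1, the cell surface proteoglycan syndecan-1, differed by -0.77, and TNFAIP1, an adaptor of a ubiquitin ligase, by -0.88. The call of SDC1 was lost with median centring (adjusted p = 0.0763).

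Of the 27 genes higher with miR-1 alone, those with the greatest miR-1 effects were SERPINB13, HSPA1A, ID3 and TNFRSF12A. SERPINB13, a protease inhibitor of keratinocytes, lay between 6.79 and 7.48 (median 7.36) with the miR-4728-3p mimic and between 7.06 and 7.57 (median 7.32) with its control. In the miR-1 experiment it read 8.57, 8.65, 8.54 and 8.60 with the mimic, and with the control 7.21, 7.13, 7.15 and 6.93. The groups overlapped with miR-4728-3p and stood apart with miR-1. Its miR-4728-3p effect was -0.06 ± 0.11, its miR-1 effect 1.49 ± 0.14, a 2.8-fold rise, and the adjusted p of the difference 2.7e-07. KRT14, a keratin of basal cells, rose 1.65-fold with miR-1 and differed by -0.83 ± 0.13, and KRT16, a keratin of stressed epidermis, differed by -0.75 ± 0.20. Of 28 tested basal and squamous genes, 3 were higher and 0 lower with miR-4728-3p (5.34% and 6.34% over all tested genes), and 5 were higher and 1 lower with miR-1 (0.714% and 0.533%). The difference was called lower (2.53% over all) for SERPINB13, KRT14 and KRT16 and higher (3.06% over all) for the calcium-binding proteins S100A8 at 0.80 and S100A9 at 0.73. S100A8 fell by 0.61 with miR-1. The call of KRT16 was lost without miR-1 mimic replicate 3 or 4 or miR-1 control replicate 3 or 4 (adjusted p up to 0.0581), and that of S100A9 without miR-1 mimic replicate 3 or miR-1 control replicate 4 (up to 0.0598).

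HSPA1A, the inducible chaperone HSP70, lay between 12.42 and 12.72 (median 12.60) with the miR-4728-3p mimic and between 12.20 and 12.63 (median 12.42) with its control. Under miR-1 it read 10.92, 10.23, 10.60 and 11.20 with the mimic, and with the control 9.69, 9.90, 9.19 and 9.15. Its groups were separate with miR-1 only, with effects of 0.17 ± 0.13 for miR-4728-3p and 1.26 ± 0.16 for miR-1 (adjusted p of the difference = 0.000797). HSPA1B, a nearly identical gene whose probes may share signal with it, differed by -0.91 ± 0.20. DNAJB1, a co-chaperone of HSP70, differed by -0.66 ± 0.16, the small heat shock protein HSPB1 by -0.55 ± 0.13 and its relative HSPB8 by -0.57. HSPB8 was no longer called without miR-4728-3p control replicate 3 or without any 1 miR-1 array other than mimic replicate 3 and control replicate 1 (adjusted p up to 0.0733). Of 16 tested heat shock genes, 1 was higher with miR-4728-3p (5.34% over all tested genes) and 5 with miR-1 (0.714%), and the difference was lower for 5 (2.53%) and higher for 0 (3.06%). With median centring 3 of these 5 calls were lost, those of HSPB1 (adjusted p = 0.233), DNAJB1 (adjusted p = 0.0834) and HSPB8 (adjusted p = 0.0804). The median effect over the list was 0.04 with miR-4728-3p and 0.34 with miR-1.

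Other genes higher with miR-1 alone included regulators and surface proteins. ID3, an inhibitor of basic helix-loop-helix factors, lay between 11.21 and 11.79 (median 11.47) with the miR-4728-3p mimic, overlapping its control at 11.05 to 11.42 (median 11.37). With the miR-1 mimic it read 10.60, 10.57, 10.66 and 10.79, and with its control 9.62, 9.69, 9.62 and 9.62, a 2.02-fold rise. TNFRSF12A, the receptor of the cytokine TWEAK, rose with miR-1 and had a difference of -0.87. F3, the tissue factor that starts blood clotting, had a miR-1 effect of 0.79, and DKK1, a secreted Wnt inhibitor, one of 0.80. Of 15 tested luminal epithelial genes, 3 were higher and 1 lower with miR-4728-3p (5.34% and 6.34% over all tested genes), and 6 were higher and 0 lower with miR-1 (0.714% and 0.533%). The difference was lower for FOXA1, a transcription factor of luminal cells, at -0.89, for CD24, a surface protein, at -0.82 and for the keratin KRT7 at -0.72, against 2.53% of all tested genes, and that of KRT7 was lost with median centring (adjusted p = 0.0501). In cholesterol and fatty acid synthesis, 1 of 23 tested genes was higher with miR-4728-3p (5.34% over all tested genes) and 2 with miR-1 (0.714%), and the difference was lower (2.53% over all) for ACLY, which makes cytosolic acetyl-CoA, at -0.69 and for the sterol enzymes SC5D at -0.70 and MSMO1 at -0.50. The call of MSMO1 was lost when any 1 of 15 of the 20 arrays was left out (adjusted p up to 0.138).

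The 20 genes lower with miR-1 alone included enzymes, secreted proteins and 2 genes of its reported target list, ASH2L and MMD. MED28, a subunit of the Mediator complex, lay between 10.03 and 10.35 (median 10.20) with the miR-4728-3p mimic, overlapping its control at 9.95 to 10.30 (median 10.21). The miR-1 mimic arrays gave 8.79, 8.62, 8.62 and 8.80, and their controls 9.51, 9.47, 9.67 and 9.47. It fell 1.77-fold with miR-1, with a difference of 0.86 ± 0.13 (adjusted p = 4.22e-05). SFRP1, a secreted Wnt antagonist, had an effect of -0.02 ± 0.12 with miR-4728-3p and fell by 0.87 with miR-1. PHGDH, the first enzyme of serine synthesis, fell by 0.91 with miR-1 and differed by 0.68 ± 0.19 (adjusted p = 0.0369), a call lost when any 1 of 11 of the 20 arrays was left out (adjusted p up to 0.126). MTX1, of the mitochondrial outer membrane, had a miR-1 effect of -0.72, DUSP6, a phosphatase that turns off ERK, one of -0.52, and CBS, which makes cystathionine, one of -0.57. The difference of MTX1 was not called with median centring (adjusted p = 0.0560).

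Of 46 tested genes reported as miR-1 targets, 3 were lower and 3 higher with miR-4728-3p (6.34% and 5.34% over all tested genes), and 7 were lower and 0 higher with miR-1 (0.533% and 0.714%). The median over the list was -0.06 with miR-4728-3p and -0.24 with miR-1, and the median difference was 0.16, against -0.02 over all tested genes. The difference was called higher for 5 (3.06% over all) and lower for 0 (2.53%). SLC44A1, a choline transporter, lay between 11.39 and 11.80 (median 11.57) with the miR-4728-3p mimic and between 11.15 and 11.62 (median 11.34) with its control. On the miR-1 mimic arrays it was at 10.04, 9.88, 9.88 and 9.98, and on their controls at 10.52, 10.52, 10.64 and 10.68. All miR-1 mimic arrays were below their controls, while the miR-4728-3p groups overlapped, and the gene differed by 0.86 ± 0.14 (adjusted p = 0.000152). ASH2L, a subunit of histone methyltransferases, differed by 0.57 ± 0.14, a call lost with median centring (adjusted p = 0.121), and MMD, a membrane protein of monocyte to macrophage differentiation, by 0.60 ± 0.18 (adjusted p = 0.0447), which was lost when any 1 of 17 of the 20 arrays was left out (adjusted p up to 0.110). For GPD2 and ADAR the difference came with a rise under miR-4728-3p: ADAR, an RNA editing enzyme that is itself interferon-inducible, had effects of 0.98 ± 0.07 with miR-4728-3p and -0.32 ± 0.09 with miR-1, the miR-1 effect not past the test (adjusted p = 0.110).

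**Figure D3:**
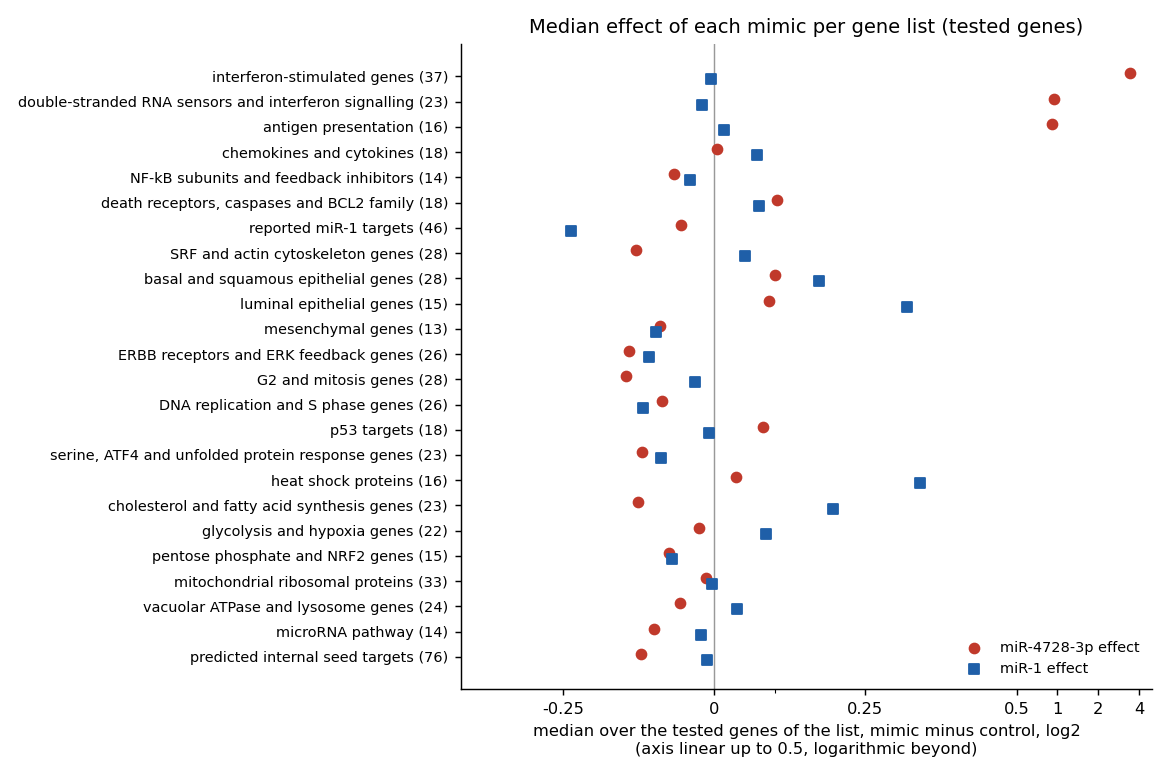
Median effect over the tested genes of each gene list with at least 10 of them, with circles for miR-4728-3p and squares for miR-1, in log2 intensity on an axis that is linear to 0.5 and logarithmic beyond. The interferon-stimulated genes sit at 3.42 with miR-4728-3p and at -0.01 with miR-1, the heat shock proteins at 0.04 with miR-4728-3p and 0.34 with miR-1, and the reported miR-1 targets at -0.06 with miR-4728-3p and -0.24 with miR-1.

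The genes that changed in the same direction with both mimics numbered 27 (0.232%), 15 higher (0.129%) and 12 lower (0.103%). This count rests on the miR-1 arrays: it was 12 to 17 without any one of them except mimic replicate 2, and 5 with median centring. It was higher, at 43, with a fit per experiment and at 59 with array weights. Of the 27, 25 had no called difference. HES4, a transcriptional repressor of the HES family, lay between 11.26 and 11.98 (median 11.74) with the miR-4728-3p mimic and between 10.06 and 10.84 (median 10.30) with its control. In the miR-1 experiment it was at 9.95, 9.99, 10.12 and 10.12 with the mimic, and with the control at 9.36, 9.38, 9.33 and 9.23. Both pairs of groups were separate, with effects of 1.29 ± 0.11 with miR-4728-3p (adjusted p = 2.82e-10) and 0.72 ± 0.14 with miR-1 (adjusted p = 0.00359). The difference of 0.57 had a 95% interval of 0.21 to 0.93 and an adjusted p of 0.0618. ID2, like ID3 an inhibitor of basic helix-loop-helix factors, rose by 1.21 with miR-4728-3p and by 0.70 with miR-1. The difference of ID3 was called, at -0.84, and that of ID2, with a 95% interval of 0.07 to 0.94, was not (adjusted p = 0.233).

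MUC1, a mucin of the apical surface, moved by nearly the same amount with each mimic. It lay between 11.74 and 12.33 (median 11.96) with the miR-4728-3p mimic and between 11.36 and 11.62 (median 11.50) with its control, and read 10.97, 10.70, 10.83 and 10.67 with the miR-1 mimic and 10.20, 10.19, 10.17 and 10.43 with its control. Both pairs were separate. The difference was -0.02, with a 95% interval of -0.33 to 0.29. FXYD3, a regulator of the sodium pump, rose by 0.60 with miR-4728-3p and 0.77 with miR-1, with an interval of the difference of -0.50 to 0.15. SCML1, a Polycomb-related protein, rose by 0.62 with miR-4728-3p and 0.80 with miR-1, with an interval of -0.52 to 0.15.

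Among the shared falls, HEY1, a repressor downstream of Notch, had effects of -0.64 ± 0.08 with miR-4728-3p and -0.55 ± 0.10 with miR-1, and the interval of the difference was -0.35 to 0.18. TRIB3, a pseudokinase of the stress response, fell by 0.52 with miR-4728-3p and by 0.73 with miR-1, with an interval of -0.25 to 0.69. Its mimic and control arrays overlapped with miR-1. PSAT1, which acts just after PHGDH in serine synthesis, fell by 0.41 with miR-4728-3p and by 0.77 with miR-1. The interval of its difference was 0.007 to 0.70, which leaves out 0, though limma did not call it (adjusted p = 0.341). CES1, a carboxylesterase, fell by 0.65 with miR-4728-3p and 0.66 with miR-1, and RPS6KA2, a kinase downstream of ERK, by 0.50 with miR-4728-3p and 0.55 with miR-1. These intervals leave room for unequal effects, so the shared genes are not shown to respond equally. The difference was called for C1orf116 and KRT6C, 2 of the 27. C1orf116, an androgen-responsive gene of epithelia, rose 1.62-fold with miR-4728-3p and 3.04-fold with miR-1 and differed by -0.91 ± 0.16 (adjusted p = 0.00034). KRT6C, whose sequence is nearly that of other keratin 6 genes, rose by 0.40 with miR-4728-3p and 0.85 with miR-1. Its difference was no longer called without miR-1 mimic replicate 1 or 3 or miR-1 control replicate 1, 3 or 4 (adjusted p up to 0.0874).

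Opposite directions were found for 12 genes (0.103%). All 12 differences were called, which follows almost from the way these genes were picked, since opposite effects add up in the difference. The count of opposite genes was 6 without miR-1 mimic replicate 1 and 4 with median centring. It was 20 with a fit per experiment and 26 with array weights. Of the 12, 8 fell with miR-4728-3p and rose with miR-1. CPA4, a secreted carboxypeptidase, lay between 7.48 and 8.09 (median 7.86) with the miR-4728-3p mimic and between 8.30 and 8.70 (median 8.55) with its control. With the miR-1 mimic it read 8.29, 8.43, 8.23 and 8.08, and with its control 7.38, 7.62, 7.12 and 7.26. The effects were -0.72 ± 0.11 with miR-4728-3p and 0.91 ± 0.13 with miR-1, and the adjusted p of their difference was 4.61e-08. MYADM, a membrane protein on the internal seed list, had effects of -0.95 ± 0.09 with miR-4728-3p and 0.62 ± 0.11 with miR-1.

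The remaining 6 genes of this kind changed by less. KRT80, an epithelial keratin, had effects of -0.62 with miR-4728-3p and 0.59 with miR-1. For TFRC, the transferrin receptor, they were -0.53 with miR-4728-3p and 0.56 with miR-1, and for FOXA1, a pioneer factor of luminal cells, -0.43 with miR-4728-3p and 0.47 with miR-1. PVR, an adhesion receptor, moved by -0.31 with miR-4728-3p and 0.43 with miR-1, and PHLDA2, of the pleckstrin homology-like family, by -0.29 with miR-4728-3p and 0.51 with miR-1. In PPP1R14C, an inhibitor of protein phosphatase 1, the values were -0.29 with miR-4728-3p and 0.44 with miR-1. The other 4 genes rose with miR-4728-3p and fell with miR-1. H3-5, a histone H3 variant gene close in sequence to other H3 genes, had effects of 0.62 with miR-4728-3p and -0.54 with miR-1. FNDC3A, a fibronectin type III domain protein, had 0.50 with miR-4728-3p and -0.59 with miR-1. SNX2, a sorting nexin of the retromer, had 0.31 with miR-4728-3p and -0.52 with miR-1, and ITGA10, an integrin that binds collagen, 0.35 with miR-4728-3p and -0.74 with miR-1. Mimic and control arrays of CPA4, MYADM, KRT80, TFRC, FOXA1, PVR, H3-5 and SNX2 did not overlap in either experiment. Those of the other 4 opposite genes overlapped with miR-4728-3p. All opposite genes were picked because both effects passed the test on these same arrays, so separate groups are likely and add no further evidence. For PVR the highest miR-4728-3p mimic array read 8.06 and the lowest control 8.10. No share of separate groups over all tested genes is given for comparison.

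**Figure D4:**
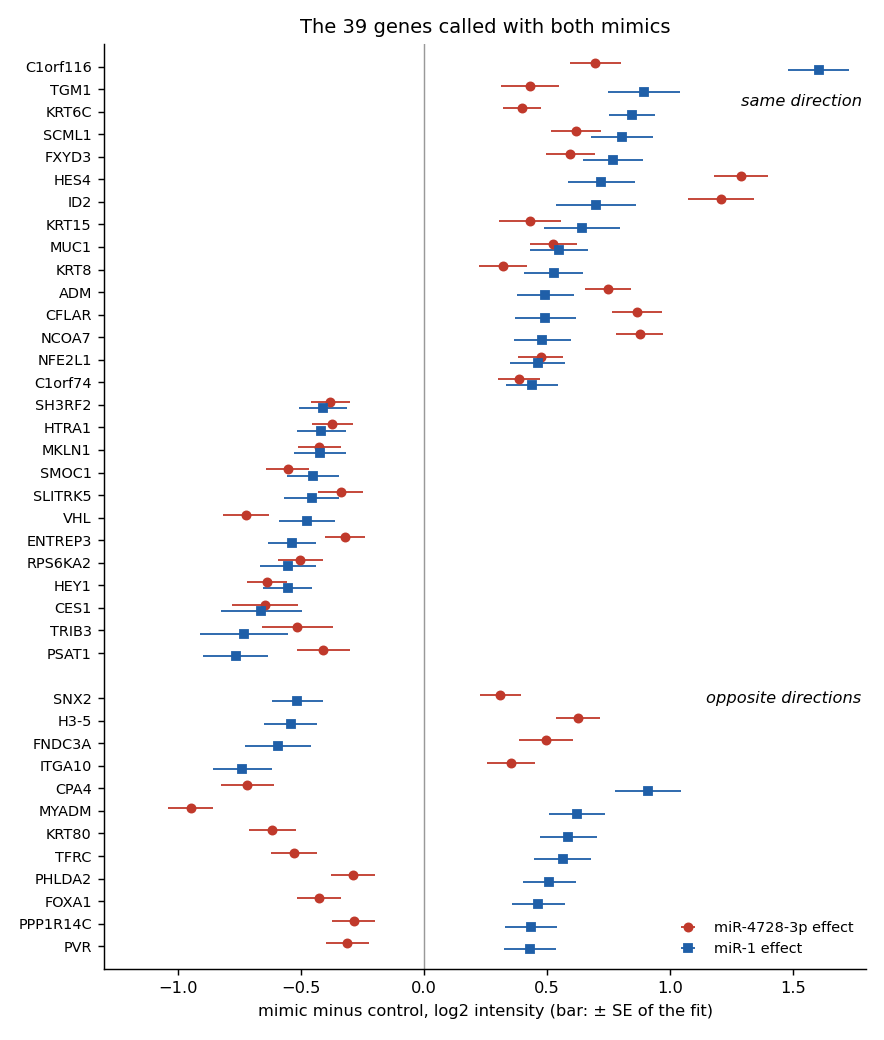
Effect of each mimic on the 39 genes called with both, in log2 intensity with the SE of the fit, circles for miR-4728-3p and squares for miR-1. The 27 genes at the top changed in the same direction, with C1orf116 at 0.70 with miR-4728-3p and 1.61 with miR-1, and the 12 at the bottom in opposite directions, with CPA4 at -0.72 with miR-4728-3p and 0.91 with miR-1.

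In a few lists the number of called differences was near the 5.59% of all tested genes, from which nothing particular to them is read. By limma, 0 of 26 tested replication genes and 0 of 22 of glycolysis and hypoxia had a called difference, and 3 and 4 of them an unadjusted p under 0.05. Of 28 mitosis genes, 1 was lower. ERBB2 had effects of 0.09 with miR-4728-3p and 0.15 with miR-1, and its difference of -0.06 had a 95% interval of -0.32 to 0.20. For USP1, a deubiquitinase, the effects were -0.33 ± 0.11 with miR-4728-3p and -0.20 ± 0.14 with miR-1, neither past the test, and the interval of the difference was -0.50 to 0.24. ESR1, the oestrogen receptor, was below the brightness filter, with group means between 6.09 and 6.36. Only 2 of 20 muscle genes were bright enough to be tested, and neither was called with either mimic.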

How the data were processed

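The authors deposited, for each experiment, 1 table of probe signal intensity before normalization and 1 of intensity normalized by them on the BASE server. The unnormalized intensities were used, and the normalized ones served as an alternative. Control probes and detection p-values were not used here. Every unnormalized column correlated best with the normalized column of its own name (Spearman's rho of at least 0.9996), and the median intensity per array was 92 to 135. In limma 3.58.1 (R 4.3.3), each experiment was background corrected (normexp, offset 50), quantile normalized over all its own probes and put on the log2 scale apart. The 39426 probes of both tables were then fitted in 1 model with 4 group means on all 20 arrays (lmFit, eBayes, no replicate block), with the 2 mimic contrasts and their difference. Tested were 19646 probes whose mean over the groups, each less the median of its experiment (6.36 for miR-4728-3p and 6.17 for miR-1), was above 0. P-values are two-sided and adjusted over these probes. Errors are the standard error of the fit unless given as SD. Levels were not compared between experiments, and precision is limited by how many arrays there are.

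Of the common probes, 27545 had 1 gene name in the platform annotation, 8 had several, 124 had names that disagreed and 11749 had none. Symbols were updated with RefSeq's gene table (GRCh38.p14), used for names only. The brightest tested probe stood for its gene. Among 3139 genes with several tested probes, 0 had probes called in opposite directions for the difference, and 47 were called by another probe only. Of 719 symbols on 27 gene lists, 5 could not be matched.

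The comparison, the members and the lists were chosen with earlier results of these data known. Named are the 10 highest and 10 lowest differences, the same outside the 5 immune lists (interferon-stimulated genes, RNA sensors, antigen presentation, chemokines, NF-kB), the 10 highest and 10 lowest miR-1-specific genes, the 10 shared and 10 opposite genes with the greatest smaller effect, up to 4 genes a list by p, and ESR1, ERBB2 and USP1. Not all of these are described. ASNS, CMPK2, CXCL8, HSPB8, IFNB1, IFNL1, IL1A, IL1B, IL6, KRT6C, MS4A1, MX2, NLRC5, PHLDA2, PPP1R14C, PSAT1, SAMD9L and SDC1 lie outside this rule and were chosen after their values were seen. Alternatives were another offset, no background correction, the authors' normalized intensities, median centring, joint normalization, other filters, a replicate block, a fit per experiment, array weights, trend and robust eBayes, replicates 1 to 4 of both experiments, the mean of a gene's probes, and leaving out each array. Python 3.11.15 with pandas 2.3.3 made the tables, and matplotlib 3.10.9 the figures.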

Additional observations from a re-analysis of the deposited data

Results flagged for a closer look

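In single groups, 1 array lay far from the others for 20 of the 412 sets of values looked at (the genes named, in 4 groups each), and chance alone sets off about 1 in 20. The array of miR-4728-3p mimic replicate 2 accounted for 5 of them: IFIH1 at 12.49 against 11.16 to 11.59 on the others, IL6 at 8.75 against 7.54 to 7.92, MSMO1 at 13.09 against 12.69 to 12.81, SRF at 8.85 against 9.28 to 9.50, and TRIB3 at 9.85 against 10.32 to 10.51. Without this array, 336 differences were called higher and 267 lower.

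Among the miR-4728-3p controls, replicate 1 stood out for KRT16 at 10.04 (others 9.16 to 9.27), MMD at 9.50 (others 8.78 to 8.95) and TAP1 at 10.60 (others 10.28 to 10.40). Control replicate 2 stood out for S100A8 at 12.28 (others 12.69 to 12.93), and control replicate 3 for ERBB2 at 8.85 (others 9.06 to 9.17).

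Among the miR-1 mimic arrays, replicate 2 stood out for SNX2 at 9.40 (others 9.56 to 9.59) and replicate 4 for CYP2J2 at 6.35 (others 6.21 to 6.23). Among the miR-1 controls, replicate 2 stood out for FNDC3A at 8.72 (others 8.34 to 8.40), HSPA1B at 9.96 (others 9.26 to 9.35) and ID3 at 9.69 (others all 9.62). Control replicate 3 did so for IFIT3 at 6.66 (others 6.32 to 6.38), IL6 at 5.89 (others 6.01 to 6.03) and OAS2 at 5.89 (others 6.11 to 6.12), control replicate 1 for CCL5 at 6.34 (others 6.52 to 6.55), and control replicate 4 for MUC1 at 10.43 (others 10.17 to 10.20).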

How the results depend on the processing

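Of 88 described genes with a called difference, all 88 kept its sign in every alternative and 72 stayed past the test in every one. The other 16 all lost the call with median centring: ASH2L, CCN1, DNAJB1, HSPB1, HSPB8, IER3, IL1B, KRT16, KRT6C, KRT7, MMD, MSMO1, MTX1, PHGDH, S100A9 and SDC1. Median centring in place of quantile normalization lowered the counts most, to 103 genes lower, 5 shared, 4 opposite, 272 miR-4728-3p-specific and 15 miR-1-specific, against 294, 27, 12, 439 and 47. Fitting each experiment with its own spread gave 452 lower, 43 shared, 20 opposite and 118 miR-1-specific, and array weights gave 59 shared, 26 opposite and 125 miR-1-specific. Joint normalization of both experiments gave 76 miR-1-specific. With the replicate number as a block, 11 were shared and 7 opposite. Same-numbered mimic and control arrays did not deviate together (correlations of -0.12 to 0.06 with miR-4728-3p and -0.29 to 0.00 with miR-1). That gives no sign of pairing by number, but these correlations of normalized values cannot exclude it. The block brought the count of miR-1 calls to 76, against 145 without it, and that of all differences to 529, against 650. The cause of these shifts was not tested. Leaving out each array in turn gave 301 to 382 differences higher and 205 to 326 lower, 12 to 32 shared, 6 to 13 opposite, 365 to 489 miR-4728-3p-specific and 30 to 51 miR-1-specific genes. The authors' normalized intensities gave 381 higher, 348 lower, 33 shared and 15 opposite. All other planned settings kept these 6 counts within 1.5 times.

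A change of sign was met only for differences near 0 that were not called. MUC1 was at 0.00876 with median centring and 0.039 with the mean of its probes, and from -0.0846 to 0.036 without single arrays. CES1 was at -0.020 without background correction, -0.018 with the authors' values and -0.016 with array weights, and from -0.0949 to 0.0985 without single arrays. RPS6KA2 was at -0.034 without background correction, -0.023 with the authors' values and -0.017 with replicates 1 to 4 of both experiments, and from -0.0278 to 0.101 without single arrays. HEY1 was at 0.00608 with joint normalization, ERBB2 at 0.00905 with replicates 1 to 4 of both experiments, and TRIB3 from -0.0203 to 0.423 without single arrays.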

Other observations

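Genes of serine synthesis and of the ATF4 pathway, which makes amino acids available under stress, had a median effect of -0.12 with miR-4728-3p and -0.09 with miR-1. Of 23 tested, 2 were higher and 3 lower with miR-4728-3p (5.34% and 6.34% over all tested genes), and 0 were higher and 5 lower with miR-1 (0.714% and 0.533%). ASNS, the asparagine synthetase, ranged from 10.03 to 10.55 (median 10.25) on the miR-4728-3p mimic arrays and from 10.18 to 10.69 (median 10.37) on their controls. It read 10.03, 10.63, 10.32 and 9.67 on the miR-1 mimic arrays and 10.72, 10.55, 11.14 and 11.07 on their controls. The miR-1 effect of -0.71 ± 0.16 passed the test (adjusted p = 0.0203), and the difference of 0.56 did not (adjusted p = 0.144). MTHFD2, a mitochondrial folate enzyme, likewise fell by 0.64 with miR-1 without a called difference (adjusted p = 0.120). The differences that passed were those of WARS1, the tryptophanyl-tRNA synthetase and a gene that interferon also raises, at 1.89 ± 0.29, of the stress factor ATF3 at 0.97 ± 0.20, and of PHGDH, against 3.06% of all tested genes.

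SNAI2, a repressor of E-cadherin on the list of reported miR-1 targets, read 8.57, 8.64, 8.59 and 8.66 with the miR-1 mimic and 9.34, 9.18, 9.41 and 9.23 with its control. Its effects were -0.23 ± 0.09 with miR-4728-3p (adjusted p = 0.119) and -0.67 ± 0.11 with miR-1 (adjusted p = 0.000892), and the difference of 0.44 fell short (adjusted p = 0.0926). On the list of ERBB receptors and ERK feedback genes, 2 of 26 tested genes had a higher difference (3.06% over all tested genes) and 2 a lower one (2.53%). BTC, the EGF-type ligand betacellulin, differed by 0.77 ± 0.18 and IER3, an early response gene, by -0.71 ± 0.17, a call lost with median centring (adjusted p = 0.0765). The difference passed the test for 69 genes with neither effect called.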
